A study of Mus musculus with 5 samples.

Results

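Aldo-keto reductases are a superfamily of mostly cytosolic enzymes that reduce aldehydes and ketones with NADPH or NADH. The mouse Akr1b genes encode aldose reductase and its relatives, which act on sugars, lipid aldehydes and prostaglandin precursors, and the Akr1c genes encode hydroxysteroid dehydrogenases that switch steroid hormones between active and less active forms. Akr1b7 was first known as the mouse vas deferens protein, an androgen-dependent product of the duct that carries sperm, and is also made in the adrenal cortex. The 10 genes described here are Akr1a1, Akr1b3, Akr1b7, Akr1b8, Akr1b10, Akr1c6, Akr1c12, Akr1c13, Akr1c14 and Akr1c18, out of 51912 gene IDs in the tables. They were kept by name from a list drawn up when earlier results of these data were known. Akr1b7 was chosen by its measured levels, which differ widely between libraries, so its values are given as a description with no test. Tests between the groups are given only for members other than Akr1b7.

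RNA came from tissue labelled dorsolateral prostate of 5 male mice aged 7 months. All mice carried Ghr, which encodes the receptor for growth hormone, with both alleles floxed, and 1 copy of a transgene in which the C3(1) promoter drives SV40 large T antigen in the prostate. All were given tamoxifen at 250 mg/kg on each of 5 days and were sampled 1 month after the last dose. The 3 mice labelled Ghr deletion also carried 1 copy of ROSA26Cre-ERT2, a tamoxifen-activated Cre recombinase driven from a broadly active locus, and the labels of the 2 tamoxifen controls list no Cre, so an effect of Cre cannot be told apart from one of the deletion. The comparison asks how transcripts differ after Ghr deletion. Ghr read 14.4 and 31.2 CPM (counts per 1e+06 counts, scaled between libraries) in control replicates 1 and 2 and 8.13, 20.9 and 12.1 CPM in deletion replicates 1, 2 and 3, with overlapping groups and a log2 fold change of -0.73 (SE 0.515; edgeR adjusted p = 0.995). The series calls the samples biological replicates.

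Libraries held 13812454 to 47656212 counts. Prostate markers were scarce: Pbsn, which encodes the prostate secretory protein probasin, stood at 411 counts for control replicate 1 and at 1 to 8 for the others. The 10 prostate markers together read 4595 and 45.0 CPM in control mice and 171.8, 135 and 42.3 CPM in the deletion libraries. Of these sums, Spink1, a trypsin inhibitor, gave 4388 CPM in control replicate 1, and Fkbp5, an androgen-responsive gene not particular to prostate, gave 168.7, 131.9 and 40.6 CPM in the deletion libraries. Over all 18615 genes that passed the low-count filter, 0 (0%) were called by edgeR at an adjusted p under 0.05, 915 (4.92%) had an unadjusted p under 0.05, limma-voom called 0 (0%) and DESeq2 called 164 of the 18233 genes to which it gave an adjusted p (0.899%).

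The 4 Akr1b members lie side by side on chromosome 6 (GRCm38, GENCODE M21), within 120.7 kb, each a protein-coding gene with 10 exons and a coding sequence of 951 bases. Akr1b3 is at chr6:34302434-34317478 on the minus strand, and Akr1b8 at chr6:34354119-34368463, Akr1b10 at chr6:34384218-34396950 and Akr1b7 at chr6:34412334-34423142 follow on the plus strand. Only 15.4 kb separate Akr1b10 from Akr1b7. Coding sequences of Akr1b7 and Akr1b10 were 89.3% identical, those of Akr1b7 and Akr1b8 84.9%, and those of Akr1b7 and Akr1b3 72.5%. The promoters of the neighbouring trio are shown because the genes are close in sequence and position and had unlike levels. Each runs 5′ to 3′ on the gene's strand from 250 bases before to 50 bases after the transcript start in RefSeq (GRCm38.p6), at chr6:34412112-34412411 for Akr1b7, chr6:34353896-34354195 for Akr1b8 and chr6:34383997-34384296 for Akr1b10. Capitals mark matches to any of the motifs searched, which were AGAACA, the hexamer recognised by the androgen receptor, TGACNNNGC, the core of the antioxidant response element, and TATAAA, the TATA box, on both strands.
Akr1b7: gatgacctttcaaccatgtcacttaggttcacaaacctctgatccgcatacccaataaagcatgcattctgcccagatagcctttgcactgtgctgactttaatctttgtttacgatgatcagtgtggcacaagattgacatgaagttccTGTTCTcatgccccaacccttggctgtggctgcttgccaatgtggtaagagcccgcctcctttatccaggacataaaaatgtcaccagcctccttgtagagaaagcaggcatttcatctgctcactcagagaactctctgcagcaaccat
Akr1b8: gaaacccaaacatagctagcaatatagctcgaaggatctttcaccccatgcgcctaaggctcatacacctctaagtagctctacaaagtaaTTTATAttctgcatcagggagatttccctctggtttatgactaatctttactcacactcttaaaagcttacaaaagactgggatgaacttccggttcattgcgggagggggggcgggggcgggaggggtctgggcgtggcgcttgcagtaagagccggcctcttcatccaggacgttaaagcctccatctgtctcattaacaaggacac
Akr1b10: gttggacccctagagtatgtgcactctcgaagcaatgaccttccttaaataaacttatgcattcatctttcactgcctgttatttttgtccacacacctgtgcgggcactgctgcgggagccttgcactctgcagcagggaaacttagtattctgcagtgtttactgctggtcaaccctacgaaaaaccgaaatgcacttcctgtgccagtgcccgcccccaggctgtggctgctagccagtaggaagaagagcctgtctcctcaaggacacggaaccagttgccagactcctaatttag

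The Akr1b7 window held 1 match to the androgen receptor hexamer, on the minus strand with its leftmost base at position -100 from the transcript start. Of all 32851 RefSeq promoter windows of this length, 19.0% held that hexamer, 12.4% the antioxidant core and 13.6% the TATA box. Akr1b8 held 1 TATA box match, on the minus strand at -159, and the Akr1b10 window held none of the 3 motifs. In the promoter windows the trio was much less alike: those of Akr1b7 and Akr1b10 were 46.1% identical and those of Akr1b7 and Akr1b8 48.7%. The Akr1b7 window was 49.4% identical to that of Akr1d1 and 48.8% to that of Akr1c19, aldo-keto reductases outside the 10. Values of this size therefore do not set the trio apart. Of the 10 members, 9 had a promoter entry. These matches are letters in a window and were not tested for binding.

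Akr1b7 had either very high or very low levels, and the split did not follow the groups. It read 4.92 and 890 CPM in control replicates 1 and 2 and 3482, 3248 and 9.25 CPM in deletion replicates 1, 2 and 3. Control replicate 2 and deletion replicates 1 and 2 were high, control replicate 1 and deletion replicate 3 were low, and the highest library stood 708-fold above the lowest. In the authors' TPM, which correct for gene length, the values were 0.73 and 835 in control mice and 1741, 1873 and 16.1 in the deletion libraries. Ranked by TPM among all genes, Akr1b7 was number 66 in control replicate 2, 15 in deletion replicate 1 and 32 in deletion replicate 2, but 8541 in control replicate 1 and 5766 in deletion replicate 3. The log2 fold change of deletion over control was 2.33 as a description, and it ranged from 1.34 without control replicate 1 to 8.83 without control replicate 2.

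**Figure D1:**
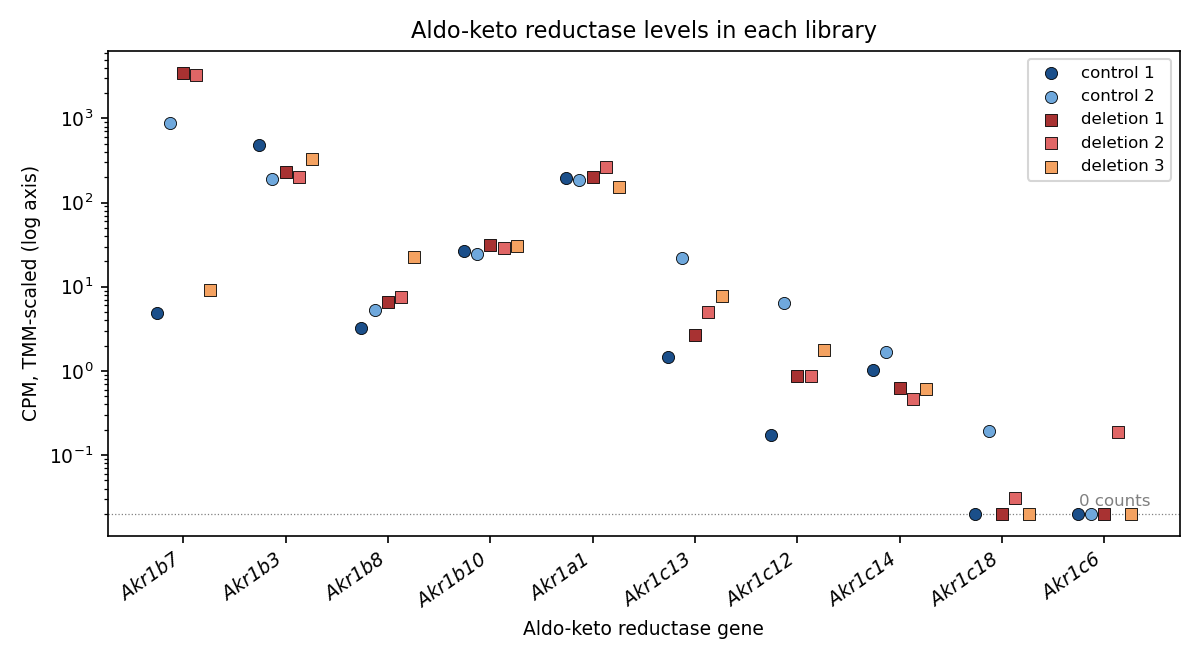
Levels of the 10 aldo-keto reductase genes in TMM-scaled CPM on a log axis, with 1 point per library (circles, 2 controls; squares, 3 deletion libraries) and zero counts placed on the dotted line. Akr1b7 spans 4.92 to 3482 CPM with libraries of both groups at each end, while Akr1a1 stays between 152 and 265 CPM.

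Within a library the ratio of 2 genes needs no scaling between libraries, and it shows the same split. The TPM of Akr1b7 over that of Akr1a1, the aldehyde reductase that also serves vitamin C synthesis in mice, was 0.0286 and 5.42 in control mice and 19.7, 13.4 and 0.0662 in the deletion libraries. Akr1b7 made up 68.5% of the summed TPM of the 10 genes in control replicate 2, 89.0% in deletion replicate 1 and 87.3% in deletion replicate 2. In control replicate 1 and deletion replicate 3 it made up 0.750% and 1.83%, and Akr1b3 led there with 68.1% and 57.9%. The summed TPM of the 10 genes was 97.4 and 1219 in control mice and 1956, 2144 and 880 in deletion mice. TPM depends on the library total, and the 50 highest genes held 22.9% to 74.3% of counts. Akr1a1 read 25.5 TPM in control replicate 1 and 243 TPM in deletion replicate 3, but 196 and 152 CPM. The sums are therefore not a comparison of levels between libraries.

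**Figure D2:**
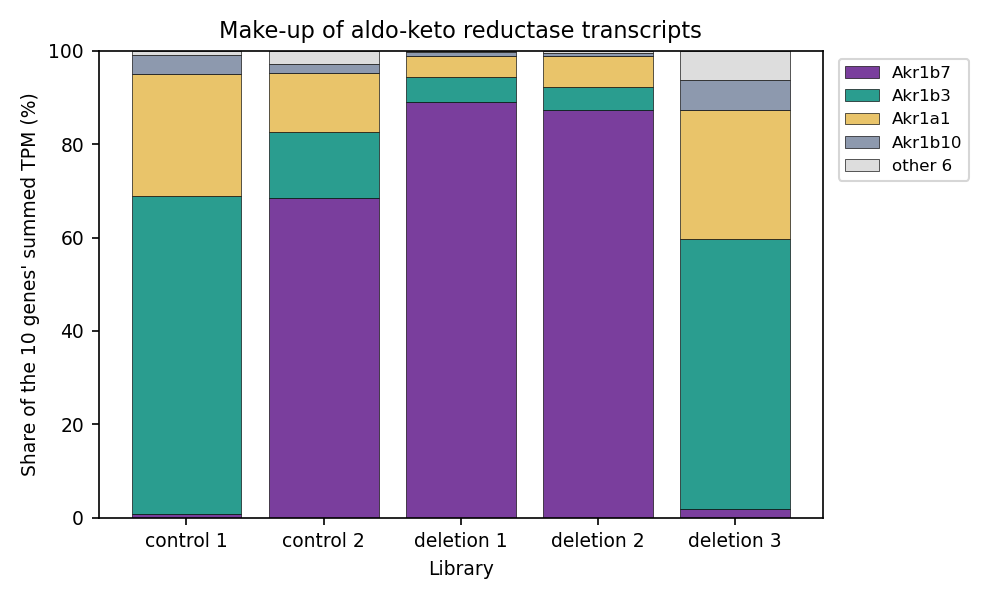
Share of the 10 genes' summed TPM held by Akr1b7, Akr1b3, Akr1a1, Akr1b10 and the other 6 genes together, 1 bar per library, in percent. Akr1b7 fills 68.5% to 89.0% of the bar in control replicate 2 and deletion replicates 1 and 2, and 0.750% and 1.83% in control replicate 1 and deletion replicate 3.

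The genes most like Akr1b7 in pattern were ranked by the root mean square difference of log2 CPM after each gene was centred on its mean over the 5 libraries. The ranking covered 7871 other tested genes of at least 10 CPM on average. Genes with symbols of predicted genes, clones or pseudogenes, and unnamed IDs, were left out. The measure is 0 for identical patterns and is in log2 units. The closest were Ptgs2, the inducible cyclooxygenase that starts prostaglandin synthesis, at 1.07, and Crisp1, a secretory protein of the epididymis that binds sperm, at 1.18. Akr1cl, an aldo-keto reductase outside the 10, came next at 1.47, followed by the potassium channel subunit Kcnj16 at 1.504, the water and glycerol channel Aqp9 at 1.59 and the epoxide hydrolase Ephx2 at 1.78. Ptgs2 read 1.75 and 669 CPM in control mice and 510, 308 and 3.48 CPM in the deletion libraries. Crisp1 read 1.28 and 711 against 1663, 1108 and 24.9 CPM. Each of the 6 genes was high in the same 3 libraries as Akr1b7 and low in the same 2, which follows from choosing them by likeness over these libraries. With 5 libraries, sharing a pattern of this kind is a description of these samples.

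Akr1cl lies on chromosome 1 (chr1:65012689-65032759), away from both aldo-keto reductase clusters. It had 5 and 1571 expected counts in control mice and 525, 1551 and 3 in deletion mice, or 0.214 and 76.0 against 18.4, 48.5 and 0.0556 CPM. Only 2 of the 7871 genes were closer to Akr1b7. The Akr1b neighbours were not: 95.7% of the genes were closer to Akr1b7 than Akr1b3 was, 85.8% than Akr1b8 and 51.3% than Akr1b10.

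**Figure D3:**
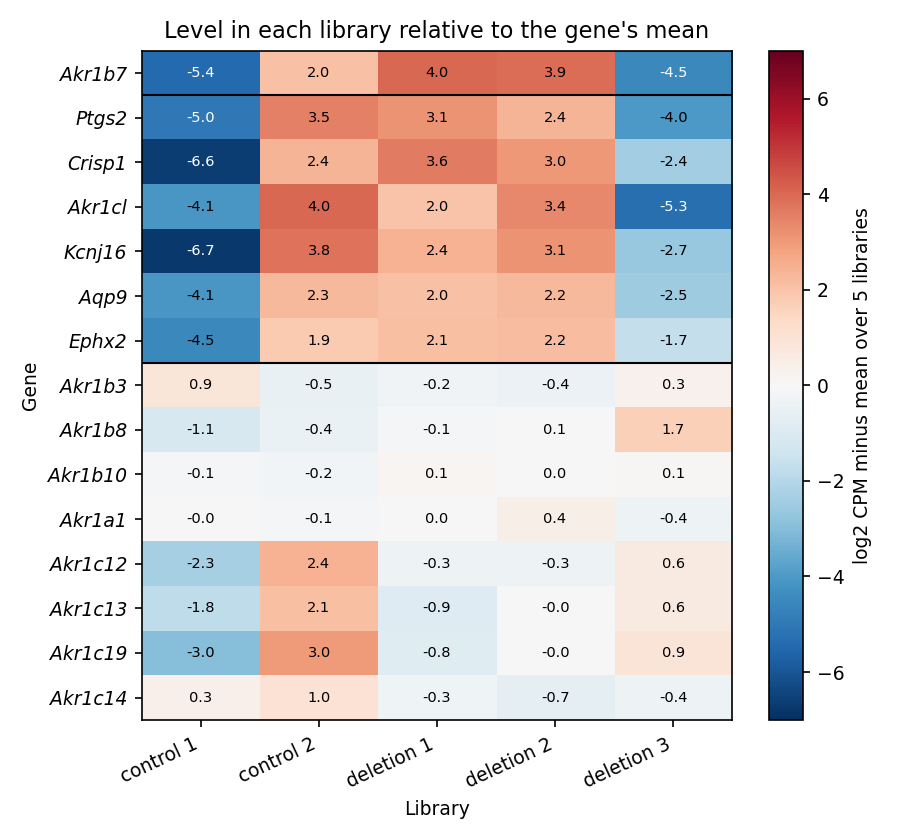
Log2 CPM in each library minus the gene's mean over the 5 libraries, for Akr1b7, the 6 genes nearest to it in pattern (between the black lines) and other aldo-keto reductases. The genes between the lines, chosen by this likeness, are above their mean in control replicate 2 and deletion replicates 1 and 2, as Akr1b7 is. Of its neighbours, Akr1b3 is below its mean in all of these libraries. Akr1b8 is below it in control replicate 2 and deletion replicate 1, and at 0.05 in deletion replicate 2. Akr1b10 is below it in control replicate 2, and at 0.14 and 0.04 in deletion replicates 1 and 2.

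Markers of other organs moved with Akr1b7 in part. The listed epididymis and vas deferens markers summed to 1.54 and 713 CPM in control mice and 1664, 1110 and 32.2 CPM in the deletion libraries, of which Crisp1 gave 1.28 and 711 against 1663, 1108 and 24.9 CPM. Adam28 added 7.04 CPM in deletion replicate 3. Of the 21 in the tables, 14 stayed at or under 3 counts in every library and 7 of those had 0 throughout, among them Crisp4, Lcn9 and Ovch2, genes of the epididymal lining. The 10 seminal vesicle markers summed to 737808 and 18574 CPM in control mice and 274175, 341188 and 8835 CPM in deletion mice, but they did not move together. Svs2, a seminal clotting protein, read 193382 and 2211 against 191438, 270026 and 1750 CPM, and Svs5 and Pate4 were also high in deletion replicates 1 and 2. In each deletion library the other 7 lay lower than in either control, against 10.2% of all tested genes. DESeq2 called these 7 lower, against 0.899% of all genes called in either direction, and edgeR called 0 of them. All 7 were highest by far in control replicate 1. Svs1 read 78198 and 171 CPM in control mice and at most 9.62 CPM in deletion mice. Svs4 read 171135 and 1924 against 712, 1717 and 160 CPM, so its groups nearly met. Among the uroplakins, which coat the bladder lining, Upk3a read 19.4 CPM in deletion replicate 3 and 0 elsewhere, and Upk1a 26.0 CPM there and at most 0.689 elsewhere. Upk1b, the most abundant, read 77.2 and 23.8 against 45.9, 67.1 and 97.6 CPM. The part of unlike tissue content in the levels of Akr1b7 was not tested, and in bulk tissue fewer cells of a type and less RNA per cell cannot be told apart.

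Akr1b3 encodes aldose reductase, which turns glucose into sorbitol in the polyol pathway. It read 487 and 190 CPM in control mice and 232, 203 and 330 CPM in deletion mice, and the groups overlapped. Akr1b3 had a log2 fold change of -0.41 (95% interval -1.53 to 0.72, SE 0.470; adjusted p = 0.995 by Benjamini-Hochberg from the quasi-likelihood test of edgeR), and its sign turned with the scaling: it was 0.25 on total counts alone, a scaling that moved the median of all genes to 0.23, and 0.73 on log2(TPM + 1), where the median of all genes was 0.54. Leaving out control replicate 1, its highest library, gave 0.42. In TPM it was 66.3 and 171.6 in control mice and 105, 105 and 509 in deletion mice. Akr1b3 had fractional expected counts in all 5 libraries, so some of its reads were shared with sequences that were not identified here. Sord, the sorbitol dehydrogenase that completes the pathway, read 587 and 580 CPM against 293, 1135 and 336 CPM.

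Akr1b8, a growth factor-induced relative of aldose reductase, was lowest in control mice and highest in deletion replicate 3. It read 3.25 and 5.32 CPM in control mice and 6.62, 7.51 and 22.9 CPM in the deletion libraries. All 3 deletion libraries were above both controls, and deletion replicate 3 was the highest. Deletion over control was 1.53 on the log2 scale (SE 0.672, 95% interval -0.079 to 3.14; edgeR adjusted p = 0.991), and it was 0.71 without deletion replicate 3, the library with the most Upk3a and Upk1a. The part of tissue content in the value was not tested.

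Akr1b10, which lies between Akr1b8 and Akr1b7, had the steadiest level of the 8 tested members. It read 26.4 and 24.5 CPM in control mice and 31.1, 29.0 and 30.3 CPM in the deletion libraries, a spread of 1.27-fold from lowest to highest. The deletion libraries were above both controls, at a log2 fold change of 0.24 (SE 0.258, 95% interval -0.37 to 0.86; edgeR adjusted p = 0.995). Akr1b10 therefore varied 1.27-fold across the libraries in which Akr1b7, its neighbour 15.4 kb away, varied 708-fold. Akr1a1, on chromosome 4 (chr4:116636510-116651680, minus strand), was also steady, at 196 and 185.7 CPM against 200.5, 265 and 152 CPM, with overlapping groups and a log2 fold change of 0.11 (SE 0.333, 95% interval -0.68 to 0.91; edgeR adjusted p = 0.997).

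The 5 Akr1c members lie with 4 further aldo-keto reductase genes in 560.2 kb of chromosome 13 (GRCm38). Akr1c12 (chr13:4268176-4279433, minus strand) and Akr1c13 (chr13:4191150-4205596, plus strand) are the closest pair of the 10, with coding sequences 96.2% identical and promoter windows 93.4% identical. The windows are shown because this pair also differed little in pattern, though some reads were divided between the genes by the counting. They lie at chr13:4279350-4279649 for Akr1c12 and chr13:4190937-4191236 for Akr1c13 (GRCm38.p6). Neither held any of the 3 motifs, so they are in lower case throughout.
Akr1c12: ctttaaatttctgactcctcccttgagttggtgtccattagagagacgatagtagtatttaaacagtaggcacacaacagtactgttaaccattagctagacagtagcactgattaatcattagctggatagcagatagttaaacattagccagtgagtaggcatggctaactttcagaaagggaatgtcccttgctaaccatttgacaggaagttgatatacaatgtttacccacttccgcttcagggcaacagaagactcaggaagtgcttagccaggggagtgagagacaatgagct
Akr1c13: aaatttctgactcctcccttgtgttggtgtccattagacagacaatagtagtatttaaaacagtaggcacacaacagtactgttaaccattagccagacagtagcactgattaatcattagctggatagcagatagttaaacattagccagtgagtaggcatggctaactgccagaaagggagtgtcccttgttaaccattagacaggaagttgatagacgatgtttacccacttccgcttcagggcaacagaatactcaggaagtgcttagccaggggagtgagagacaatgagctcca

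Reads of this pair were divided between the genes by the authors' counting. Of the windows of 100 bases in the Akr1c12 transcript, 11.5% occur exactly in that of Akr1c13. The expected counts of Akr1c12 were 4.44 and 131.02 in control mice and 25.27, 27.79 and 94.93 in the deletion libraries, those of Akr1c13 were 33.56 and 449.98 against 76.73, 159.21 and 422.07, and their sums came to 38, 581, 102, 187 and 517, whole within 0.02 in all 5 libraries. Each gene's own level is therefore uncertain. The sum does not depend on that division, and it stood at 1.63 and 28.1 CPM in control mice and 3.57, 5.85 and 9.58 CPM in the deletion libraries. Akr1c13 took 75.2% to 88.3% of it.

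Akr1c12 and Akr1c13, both reductases of the hydroxysteroid dehydrogenase branch, were highest in control replicate 2 and lowest in control replicate 1. Akr1c13 read 1.45 and 21.8 CPM in control mice and 2.70, 4.98 and 7.82 CPM in the deletion libraries, all of which lay between the controls. The fold change on the log2 scale was -1.16 (SE 0.992, 95% interval -3.54 to 1.21; edgeR adjusted p = 0.995) and turned to 1.82 without control replicate 2. Akr1c12 read 0.171 and 6.34 against 0.876, 0.876 and 1.76 CPM, with a log2 fold change of -1.46 (SE 1.18; edgeR adjusted p = 0.995) that turned to 2.75 without that library. The difference in pattern between the pair was 0.42 in log2 units, and the part of the divided reads in this likeness was not tested. Akr1c19, a gene between them on the chromosome that shares 77.8% of the coding sequence of each, came 0.48 from Akr1c12 and 0.69 from Akr1c13, at 0.0855 and 9.14 against 0.595, 1.10 and 2.13 CPM.

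**Figure D4:**
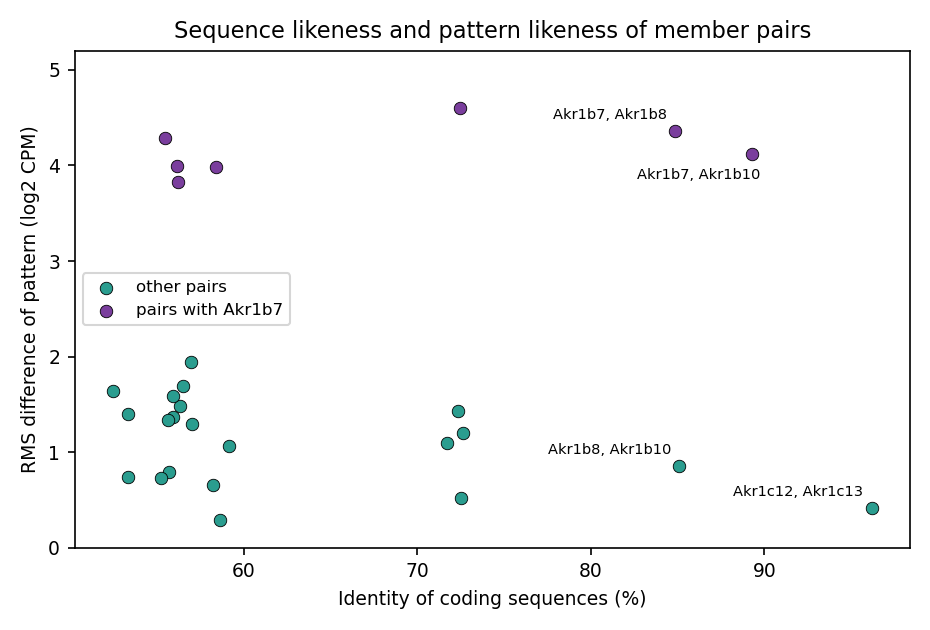
Each point is 1 of the 28 pairs of the 8 tested members, with coding sequence identity in percent across and the root mean square difference of their centred log2 CPM up. The 7 pairs with Akr1b7 lie at 3.83 to 4.60, up to 89.3% identity, and the 21 other pairs at 0.29 to 1.95. Pairs share genes and libraries, so the points are not independent. Some reads of Akr1c12 and Akr1c13, the pair of highest identity, were divided between these genes by the counting.

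The steroid enzymes of the remaining Akr1c members were scarce. Akr1c14 (chr13:4049011-4090688), a 3-alpha-hydroxysteroid dehydrogenase that inactivates dihydrotestosterone, read 1.03 and 1.69 CPM in control mice and 0.630, 0.470 and 0.612 CPM in the deletion libraries. Every deletion library was below both controls, with 15 to 35 counts per library and a log2 fold change of -1.24 (SE 0.589, 95% interval -2.65 to 0.16; edgeR adjusted p = 0.995). Akr1c6 (chr13:4434306-4457877), a 17-beta-hydroxysteroid dehydrogenase best known from liver, was seen only as 6 counts, all from deletion replicate 2. Akr1c18 (chr13:4132615-4150654), the 20-alpha-hydroxysteroid dehydrogenase that breaks down progesterone, had 4 counts in control replicate 2, 1 in deletion replicate 2 and 0 elsewhere. A count of 3, a floor chosen here, stood for 0.0556 to 0.145 CPM. Levels below that rest on fewer than 3 counts and are uncertain at this depth, and neither gene passed the low-count filter.

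In the comparison of groups, edgeR called 0 of the 7 members other than Akr1b7 that passed the filter (0% of all genes were called), and 0 had an unadjusted p under 0.05, against 4.92% of all genes. DESeq2 and limma-voom also called 0 of the 7, against 0.899% and 0% of all genes. All deletion libraries lay above both controls for 2 of the 7, Akr1b8 and Akr1b10, against 9.43% of all tested genes, and below both for 1, Akr1c14, against 10.2%. By fold change 3 were higher and 4 lower. The intervals are wide: those of Akr1c12 and Akr1c13 span over 4 log2 units, and a p that misses the threshold does not show equal levels.

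**Figure D5:**
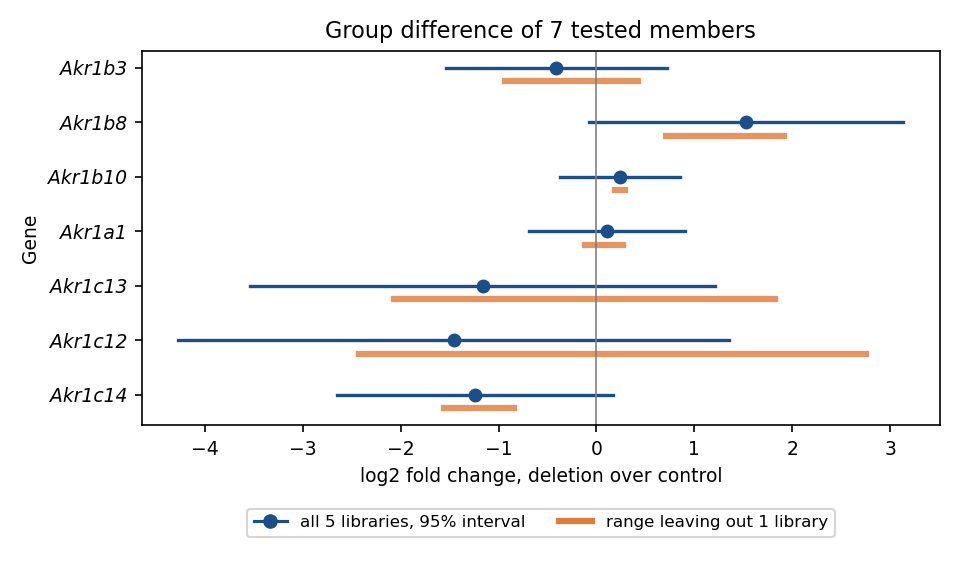
Log2 fold change of deletion over control for 7 tested members other than Akr1b7 (blue points, 95% interval of the edgeR fit) and the range of the fold change when 1 library is left out (orange). Every interval includes 0, and the orange range crosses 0 for Akr1b3, Akr1a1, Akr1c13 and Akr1c12.

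Of 10 further aldo-keto reductase genes listed beside the members, 7 were tested, 6 lower and 1 higher in the deletion libraries, with a median log2 fold change of -0.62, where the median of all tested genes was 0.0045. None was called by edgeR or DESeq2, and 0 had an unadjusted p under 0.05. Without control replicate 2 there were 3 higher and 4 lower at a median of -0.10, and limma-voom also gave 3 and 4. On log2(TPM + 1), 5 of the 7 were higher, at a median of 0.16 where that of all genes was 0.54. Akr1e1, a glucose-derivative reductase of the chromosome 13 cluster, read 5.26 and 17.4 against 8.37, 7.48 and 12.7 CPM, and Akr7a5, an aflatoxin aldehyde reductase, 7.10 and 4.79 against 8.62, 6.79 and 4.45 CPM. The potassium channel beta subunits Kcnab2 and Kcnab3 share the aldo-keto reductase fold. These 2 of the 7 were below both controls in each deletion library, against 10.2% of all tested genes. Kcnab3 read 3.08 and 1.64 against 1.12, 1.28 and 1.57 CPM. Kcnab2 read 0.984 and 0.725 against 0.595, 0.720 and 0.593 CPM, at 15 to 32 counts per library, so its groups nearly met.

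Lists of genes that share substrates, cofactors or regulation with the members were read beside them. Of 20 listed genes of aldehyde and carbonyl disposal, 16 were higher and 4 lower, with a median log2 fold change of 0.55. None was called by edgeR or DESeq2, and 2 of 20 had an unadjusted p under 0.05, against 4.92% of all genes. All deletion libraries were above both controls for 3 and below both for 2, against 9.43% and 10.2% of all genes. Gsta4, a glutathione transferase for lipid aldehydes, read 23.9 and 30.8 against 53.9, 88.1 and 172.5 CPM, and Aldh1a2, which makes retinoic acid, 3.72 and 6.96 against 2.00, 0.908 and 1.22 CPM. Without deletion replicate 3 the list stood at 11 higher and 8 lower of 19 genes, and without control replicate 1 its median was 0.30.

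Of 17 listed NRF2 targets and regulators, 14 were higher and 3 lower, with a median of 0.62. EdgeR called 0, and 3 of 17 had an unadjusted p under 0.05, against 4.92% of all genes. DESeq2 called 1 of 17, against 0.899% of all genes, and this was Gstm1, a glutathione transferase, at 93.3 and 166 against 307, 485 and 607 CPM (DESeq2 adjusted p = 0.0232). Nqo1, a quinone reductase, read 2.87 and 8.22 against 13.1, 22.8 and 10.7 CPM, and Slc7a11, the cystine importer, 0.385 and 1.21 against 1.54, 2.75 and 11.9 CPM. In 6 of the 17 all deletion libraries were above both controls, against 9.43% of all tested genes. The median was 0.28 without deletion replicate 2 and 0.98 without control replicate 2.

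Among the other lists, prostaglandin genes had 10 of 14 higher at a median of 0.21, steroid conversion genes 9 of 12 tested higher at 0.39, NADPH supply genes 4 of 12 higher at -0.052, and the polyol and fructose list 2 of 3 higher at 0.011. Single libraries moved these values. The prostaglandin list stood at 5 of 14 higher and -0.05 without control replicate 1 and at 12 of 14 and 0.78 without control replicate 2, and its median was -0.003 and 0.04 without deletion replicates 1 and 2 and 0.44 without deletion replicate 3. The steroid median was 0.96 without control replicate 2. The NADPH median lay between -0.12 and 0.02 with 1 library left out, and 8 of its 12 genes were higher on total counts and 11 on log2(TPM + 1). The polyol median lay between -0.46 and 0.28. EdgeR and DESeq2 called 0 genes in these 4 lists, against 0% and 0.899% of all genes. NADPH supply had 1 of 12 genes with an unadjusted edgeR p under 0.05, and the other lists had 0, against 4.92% of all genes. That gene was Me2, a mitochondrial malic enzyme, at 21.1 and 13.6 against 7.32, 6.67 and 6.91 CPM. Ptges, the prostaglandin E synthase, was lowest where Akr1b7 was lowest, at 24.3 and 309 against 362, 444 and 230 CPM. Among steroid genes, Hsd17b12, a 17-beta-hydroxysteroid dehydrogenase, read 19.0 and 30.0 against 30.5, 50.8 and 42.0 CPM. Star, which carries cholesterol into mitochondria, read 4.32 and 5.76 against 8.65, 7.39 and 7.80 CPM. These were the 2 of 12 tested whose deletion libraries all lay above both controls, against 9.43% of all tested genes. Below both lay 0, against 10.2%. Srd5a1, of the same list, overlapped at 0.941 and 0.967 against 1.26, 0.657 and 13.1 CPM.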

How the data were processed

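For each mouse the authors deposited a gene table from RSEM holding expected counts, estimated and not normalized, and TPM, scaled by transcript length and library total, per the file headers. Tools listed in the submitters' processing notes are STAR 2.5.3a, RSEM 1.3.0 and bcl2fastq 2.20.422, with the build GRCm38. The RNA was total RNA made into stranded libraries, per the labels' protocols. The sources used here give neither the annotation release nor the strand setting.

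Expected counts were rounded and fitted over 5 libraries in R 4.3.3 by edgeR 4.0.16, with limma 3.58.1 for alternatives: filterByExpr, TMM, robust glmQLFit and glmQLFTest on the group, Benjamini-Hochberg adjustment over 18615 genes, threshold 0.05. TMM factors ran from 0.491 to 1.61, and the 50 highest genes held 22.9% to 74.3% of counts. DESeq2 1.42.0, limma-voom, other scalings, no filter, log2(TPM + 1), a replicate block and left-out libraries were alternatives. The fit was tested on simulated data. Log2 CPM for patterns used a prior count of 2. Symbols matched all but 279 IDs. Coding sequences came from GENCODE M21 and were aligned globally with Biopython 1.88.

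Members, lists and motifs were chosen with earlier results of these data known. Named genes were the 10 members, Ghr, the 6 nearest to Akr1b7 in pattern, and list members of small p. Akr1e1, Akr7a5, the single tissue markers and the genes under other observations were chosen after their values were seen.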

Additional observations from a re-analysis of the deposited data

How the results depend on the processing

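Of the 7 tested members other than Akr1b7, 0 were called under every alternative run. Over all genes, edgeR called 0 with median-ratio factors and with no low-count filter, 46 on total counts alone, and 85 without control replicate 1 and deletion replicate 3 together. DESeq2 called 164, limma-voom 0 and limma on log2(TPM + 1) 11. With 1 library left out the count ran from 0 to 48, the highest without control replicate 2. With the replicate number as a block edgeR called 8. Only 2 numbers occur in both groups, and the labels state no pairing. The correlation of same-numbered libraries' deviations was 0.13 for number 1 and -0.14 for number 2. With 2 controls, the deviations of 1 mirror those of the other: control replicate 2 gave -0.13 with deletion replicate 1. These values therefore cannot decide whether animals were paired.

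Of 104 alternative fold changes of members, those of Akr1b7 included, 96 kept their direction and 8 turned. Akr1b7 was chosen by its levels and all of its alternatives are among the 96, so the count is not one of the other members alone. Akr1b3 (-0.41) turned to 0.25 on total counts, 0.73 on log2(TPM + 1), 0.42 without control replicate 1 and 0.19 without that library and deletion replicate 3. Akr1c12 (-1.46) turned to 0.17 in limma-voom and 2.75 without control replicate 2, and Akr1c13 (-1.16) to 1.82 without it. Akr1a1 (0.11) turned to -0.11 without deletion replicate 2. The cause was not tested. With 1 library left out the lowest or highest values on the other side were 0.28 for Akr1a1, -0.94 for Akr1b3, -2.43 for Akr1c12 and -2.07 for Akr1c13. The description of Akr1b7 moved from 2.33 to 5.64 with the replicate block. Akr1c6 and Akr1c18 had too few counts for a fold change. Depth limits Akr1c14, at 15 to 35 counts per library, and Akr1c12, at 4.44 expected counts in control replicate 1.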

Other observations

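Deletion replicate 2 alone held a few counts of genes known from liver, in values chosen after they were seen. Akr1d1, the steroid 5-beta-reductase of bile acid synthesis, had 13 counts there and 0 in each other library, and Akr1c6 had 6 and 0.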
